A study of Mus musculus with 66 samples.

Results

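Lungs of mice without functional Nrf2 were compared at birth and 2 weeks later. The libraries were those titled Knockout at postnatal day 0 (PND0, 3 libraries) and at postnatal day 14 (PND14, 3 libraries), 6 of the 66 libraries of the series, and every probe set that is not an array control was tested. The newborn group held Nrf2-/- neonates and the later group Nrf2-/- juveniles. Both carried the same deletion in every cell, so the comparison by itself is one of age. The wild-type counterpart, used below to test whether the change differed between genotypes, was 3 Nrf2+/+ libraries at PND0 and 3 at PND14. All dams and pups had the same purified diet and a light-dark cycle, and no other agent was given. Per the labels, each library was made from RNA of 1 homogenized lung on 1 Affymetrix mouse array.

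In mice the lung is born in the saccular stage. During the first weeks ridges called secondary septa, which carry elastic fibres, divide the saccules into alveoli, while type 1 cells flatten against the capillaries and type 2 cells make surfactant. Over the same weeks the fetal growth programme, much of it run by imprinted genes, is switched off, and the airways first meet microbes and inhaled matter. The gene Nfe2l2 encodes Nrf2, which Keap1 holds in the cytoplasm and which, when released, pairs with small Maf proteins to switch on antioxidant and detoxification genes.

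Values are log2(signal + 16) after quantile normalization, so a difference of 1 is a doubling except for dim genes, where it understates the change. The error after ± is a standard error from a limma fit to all 66 arrays, and a gene is said to have risen or fallen where the adjusted p was under 0.05. The Nfe2l2 probe set with the highest signal read 5.43, 5.64 and 4.41 in the newborn knockouts and 5.47, 4.93 and 4.52 at PND14, against means of 11.83 and 11.67 in wild type. It did not separate the ages (-0.19 ± 0.34, adjusted p = 0.75), and all 6 libraries matched their genotype label. The second Nfe2l2 probe set behaved differently, at 9.91, 10.19 and 10.05 in newborn knockouts and 7, 6.04 and 6.46 at PND14 (-3.55 ± 0.31, adjusted p = 5.3e-13), with wild-type means of 6.78 and 5.97. Which part of the transcript it reads was not examined.

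The tissue was lung at both ages: the surfactant protein gene Sftpc averaged 14.69 and 14.75, the type 1 cell receptor gene Ager 14.37 and 14.79, and the club cell secretoglobin gene Scgb1a1 14.92 and 14.99. The 6 arrays had been scaled alike, to a trimmed mean of 500. Correlations were 0.972 to 0.978 among the newborn libraries, 0.961 to 0.97 among those of PND14 and 0.925 to 0.939 between the ages. Measures of RNA and of sex moved with the age groups. The log2 ratio of 3' to 5' signal of the Gapdh control was -0.25 to -0.17 at PND0 and 0.77 to 1.38 at PND14. Xist was high in 1 newborn library (13.72, against 7.6 and 8.66) and in all 3 at PND14 (13.01 to 13.75). With the Gapdh ratio as a covariate 4191 probe sets were called in place of 13848, and with Xist 13641. For most groups below, the calls that this fit kept or ended are given, and the part of the ratio in the results was not tested.

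Of 45037 probe sets, 13848 differed between the ages, 6630 higher and 7218 lower at PND14, and 5389 of them by at least 2-fold. Counted by gene, with the brightest probe set standing for each, 6287 of 18193 were called (34.6%), 4030 higher (22.2%) and 2257 lower (12.4%). Changes of at least 2-fold were called higher for 1383 genes (7.6%) and lower for 550 (3.02%). These percentages are the background for the lists. The median gene was 0.129 higher at PND14. That split depends on scaling, since with array medians subtracted in place of quantile normalization the median gene was 0.294 higher, 63.2% of called probe sets were higher, against 47.9%, and 80.4% of called genes, against 64.1%. Calls were made against 0 and not against that median, so small changes depend on scaling as well. Of 224 genes followed through the alternatives, 6 lost a call with array medians subtracted and 6 gained one. In that fit the falls of Prdx2, Prdx4, Col4a1, Tgfbr2, Cebpa and Sftpb given below were not called.

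**Figure D1:**
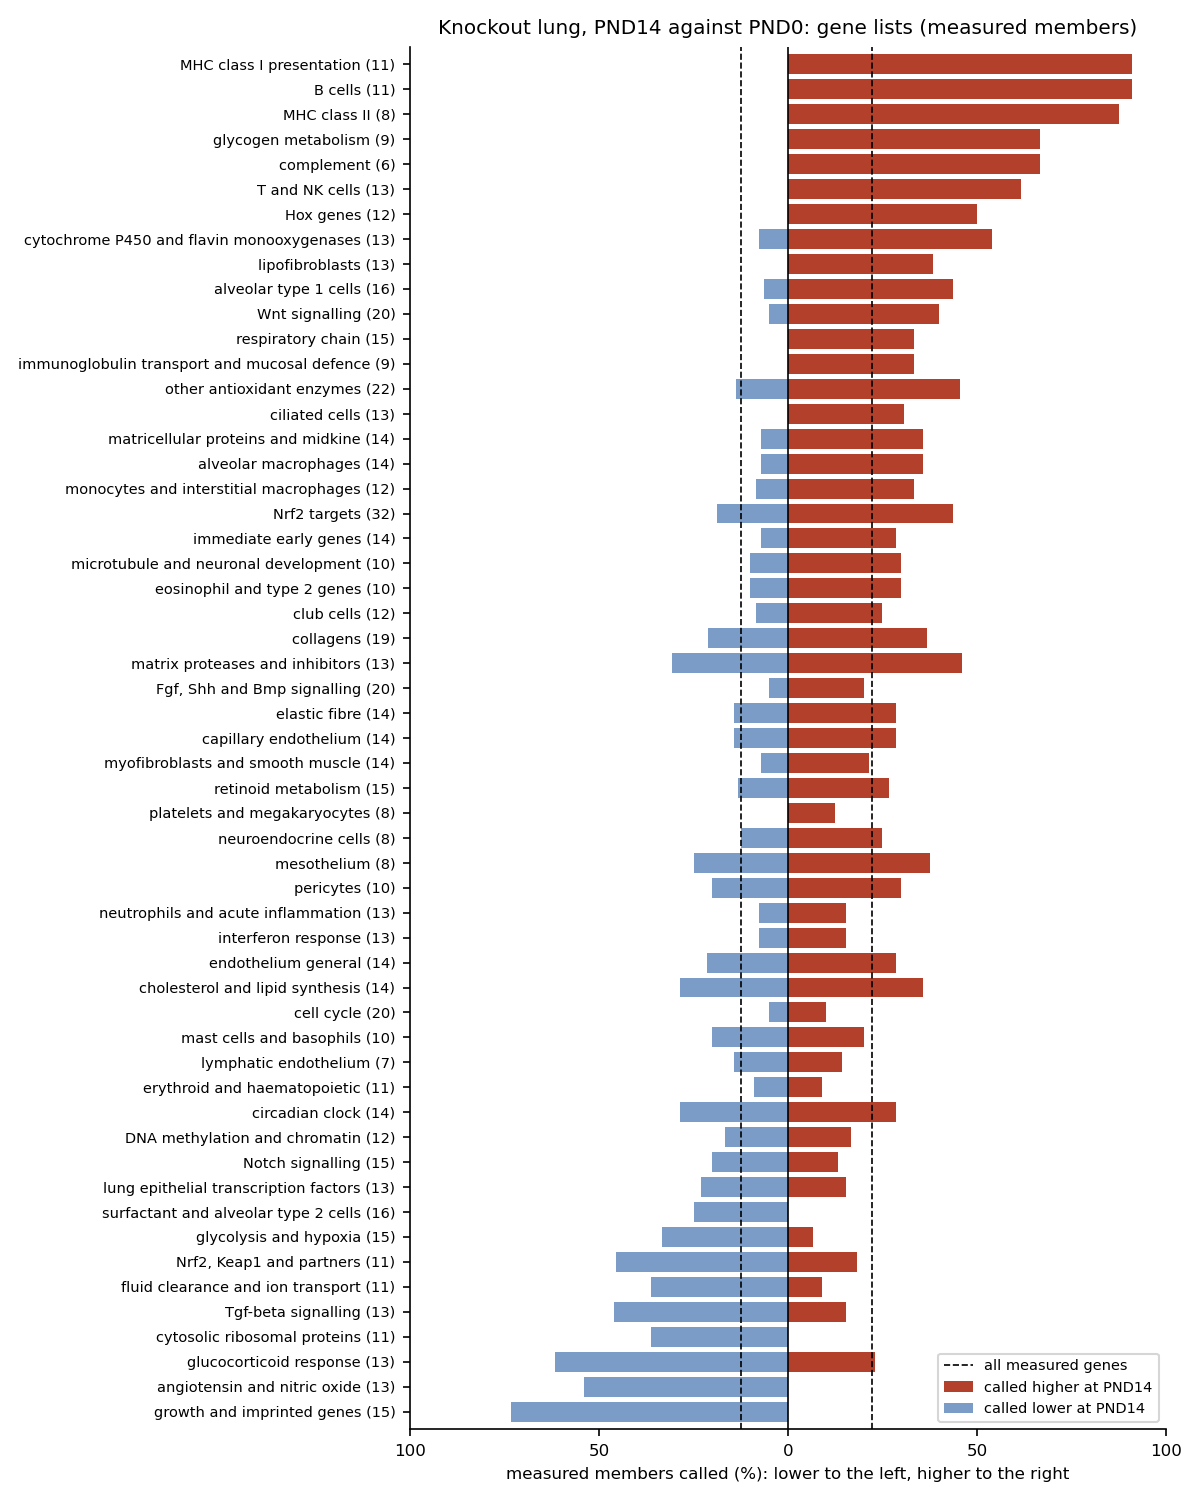
Share of measured members of each gene list called higher (right, red) or lower (left, blue) at PND14 against PND0 in knockout lung, with the number measured in brackets. Dashed lines give the shares over all 18193 genes (22.2% higher, 12.4% lower). Antigen presentation and lymphocyte lists lie at the top, growth and imprinted genes at the bottom.

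Fetal growth genes fell together. Of 15 measured members of the list of growth and imprinted genes, 11 fell and none rose, with a median of -1.3, against a median of 0.129 over all genes. Dlk1, an imprinted Notch-like protein of immature cells, was at 13.88, 13.77 and 13.59 in the newborn libraries and at 9.91, 9.04 and 8.73 at PND14. All 3 later values lay far below the newborn ones (-4.52 ± 0.41, adjusted p = 1.5e-12). Igf2, the fetal insulin-like growth factor, read 13.27, 12.71 and 12.7 at birth and 10.51, 10.22 and 10.56 at PND14, again without overlap (-2.46 ± 0.3). Peg3 (-1.86 ± 0.17), Mest (-2.22 ± 0.15), the zinc finger gene Plagl1 (-1.3 ± 0.1), the growth restrainers Cdkn1c (-1 ± 0.18) and Grb10 (-0.81 ± 0.15), and the fetal RNA-binding and chromatin genes Igf2bp1, Igf2bp3 and Hmga2 also fell. Members not called were Igf1 (-0.3), the binding protein gene Igfbp3 (-0.55), the growth hormone receptor gene Ghr (-0.01), and Lin28b, at 4.09 and 4.63. With the Gapdh ratio as a covariate 10 of the 15 were called lower.

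Dlk1 lies in an imprinted cluster on chromosome 12 that runs to Dio3 and, from the maternal copy, makes the long non-coding RNAs Meg3, Rian and Mirg. Meg3 was at 13.96, 14.01 and 13.92 in newborns and 10.91, 10.79 and 10.58 at PND14. This brightest probe set changed by -3.2 ± 0.3, and 10 of the 11 probe sets of Meg3 were called lower. Rian fell from 13.04, 12.8 and 12.67 to 9.75, 9.38 and 9.78 (-3.2 ± 0.34) and Mirg from a mean of 8.74 to 6.15 (-2.6 ± 0.32). In all 4 of the 6 measured genes of the locus fell, and the other two, both dim, were not called. The test of the difference from the wild-type step missed the threshold (Dlk1 adjusted p = 0.12, Meg3 0.6, Igf2 0.85).

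**Figure D2:**
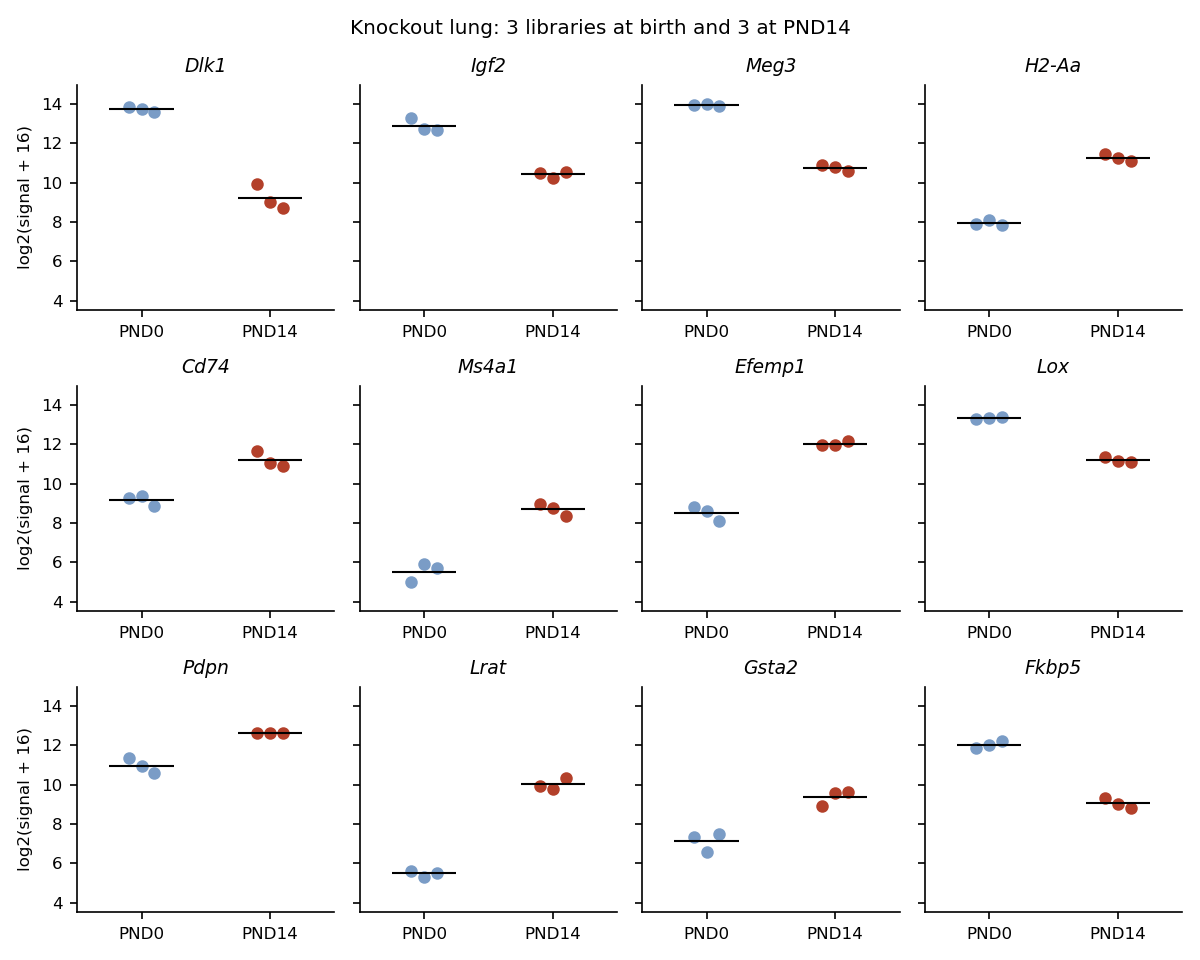
Values of 12 genes in each knockout library, as log2(signal + 16), at PND0 (blue) and PND14 (red). Points are libraries and bars are group means. None of the 12 overlapped between the ages, as was the case for 28.5% of all genes higher and 15.9% lower at PND14.

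Antigen presentation rose. Of 8 measured MHC class II genes 7 rose and none fell, and of 11 genes of MHC class I presentation 10 rose and none fell. H2-Aa, the alpha chain of the class II molecule I-A, was at 7.92, 8.08 and 7.86 in newborns and 11.46, 11.28 and 11.1 at PND14. The libraries of each age stood close together and the ages about 3 log2 units apart (3.33 ± 0.53, adjusted p = 1.7e-06). Its partner H2-Ab1 (3.15 ± 0.54), H2-Eb1 of the I-E molecule (2.84 ± 0.58) and the invariant chain gene Cd74 (2.02 ± 0.45) rose with it, as did the peptide-loading gene H2-DMa (0.93 ± 0.22). Ciita, the class II master activator, rose from a dim 5.75 to 6.43 (0.69 ± 0.21), a call lost without PND0 replicate 2 (0.57, adjusted p = 0.072) or PND14 replicate 1 (0.56, adjusted p = 0.07). H2-Oa of the modulator H2-O rose by 1.48, a call lost without PND0 replicate 2 (1.37, adjusted p = 0.058) or PND14 replicate 2 (1.29, adjusted p = 0.075). The lysosomal protease gene Ctss, which is bright in macrophages, was at 10.95 and 10.89 and was not called. In class I, the immunoproteasome gene Psmb9 read 7.2, 7.16 and 7.15 at birth and 9.45, 9.45 and 9.07 at PND14 (2.16 ± 0.39). H2-K1 (0.91 ± 0.19), H2-M3 (1.4 ± 0.21) and the peptide transporter gene Tap2 (1.17 ± 0.27) also rose. With the Gapdh covariate 4 class II and 6 class I genes were called higher and none lower.

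The promoters shown are those of the 3 class II genes in which the letters TGATTGG were found, so each holds them by choice. They are the 150 bases before the RefSeq transcription start (GRCm38.p6, read 5' to 3' on the gene's strand), with the letters TGATTGG, the core of the Y box known from class II promoters, in capitals.
H2-Aa, chr17:34287824-34287973, minus strand: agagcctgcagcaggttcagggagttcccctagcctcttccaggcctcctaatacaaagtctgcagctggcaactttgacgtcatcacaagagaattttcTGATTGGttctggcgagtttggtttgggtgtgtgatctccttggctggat
H2-Eb1, chr17:34305717-34305866, plus strand: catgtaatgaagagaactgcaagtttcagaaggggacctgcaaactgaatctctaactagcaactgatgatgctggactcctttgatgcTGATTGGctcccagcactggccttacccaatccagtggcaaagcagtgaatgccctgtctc
H2-Oa, chr17:34092229-34092378, plus strand: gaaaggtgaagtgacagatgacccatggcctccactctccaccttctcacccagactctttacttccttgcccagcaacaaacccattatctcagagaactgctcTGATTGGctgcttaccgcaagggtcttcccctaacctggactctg
The capitals begin 50, 61 and 45 bases before the start.

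The motif was searched on both strands from 250 bases before to 50 after the start, and overlaps the motif CCAAT, whose reverse complement it holds. It was present in 3 of the 5 class II genes with a promoter in the RefSeq table, those shown, and absent from H2-DMa and Ctss. Its share was 8.2% over all 27025 genes of that table and 9.59% over the measured genes. Among genes that rose it was 9.76%, and among those that fell 10.5%. For changes of at least 2-fold these shares were 6.96% and 12.1%. The letters were not particular to class II. Of class I presentation genes, H2-K1, H2-D1, Psmb9 and Tap1 held them and B2m, Tapbp, Psmb8, Psmb10 and H2-M3 did not. They were in 7 of 17 promoters of the cell cycle list (41.2%), most of whose members were not called. Of the Nrf2 targets 2 of 27 held them, and of the interferon response list 0 of 9. Motif and promoters were chosen after the values were seen. Of motifs named earlier, CCAAT was in 38.2% of promoters of genes that rose and 36.9% of those that fell, against 37.9% of all. The antioxidant element core TGACNNNGC was in 14.3% and 15%, against 12.5% of all and 14.2% of the measured genes. TTTGAA was in 12.2% and 10.3%, against 18.1% of all and 13.3% of the measured genes. A match is a description of letters in the window.

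Lymphocyte genes rose. Of 11 B cell genes 10 rose and none fell, with a median of 1.55, and of 13 T and NK cell genes 8 rose and none fell, with a median of 1.9. Ms4a1, which encodes the B cell surface protein CD20, read 4.98, 5.9 and 5.69 in newborns and 8.98, 8.75 and 8.38 at PND14 (3.18 ± 0.29, adjusted p = 1.3e-12). The heavy chain gene Ighm rose from 4.6, 6.41 and 5.81 to 10.43, 10.79 and 8.78 (4.39 ± 0.8). Its lowest value at PND14, in replicate 3, still lay above every newborn value, and the same library had the lowest value of the joining chain gene Jchain (8.11, 8.39 and 6.77, 3.05 ± 0.44). Cd22 (1.66 ± 0.23) and the coactivator gene Pou2af1 (1.98 ± 0.3) rose as well, while Pax5 stayed dim at 5.23 and 4.7. Among T and NK genes the chemokine gene Ccl5 (3.48 ± 0.71), the adhesion gene Cd2 (2.09 ± 0.63) and the NK receptor gene Klrd1 (2.01 ± 0.42) rose. Cd3g, of the T cell receptor complex, rose by 2.9 ± 0.95, a call lost without PND0 replicate 3 (2.48, adjusted p = 0.082). Cd4 (4.49 and 4.77) and Cd8a (6.14 and 6.51) did not pass the test. In whole lung, more cells of a type and more RNA per cell cannot be told apart. The thymus list, a check on RNA from that organ, had 1 of 7 genes called, Cd1d1, and a median of 0.69. Its mean over the 7 genes was 5.15, 6.05 and 5.71 at birth and 6.63, 6.73 and 6.25 at PND14, higher in every later library. The part of thymus RNA in the lymphocyte values was not tested. With the Gapdh ratio as a covariate 5 B cell and 4 T and NK genes kept a call.

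Other leukocyte genes moved less uniformly. Of 14 alveolar macrophage genes 5 rose and 1 fell, with Itgax, the integrin CD11c, going from 6.76, 6.52 and 6.65 to 8.71, 8.04 and 8.44 (1.75 ± 0.3). Siglecf rose by 1.37 ± 0.37, and Marco (7.54 and 7.36) and Chil3 (12.38 and 11.43) did not pass the test. Of 12 genes of monocytes and interstitial macrophages 4 rose and 1 fell. The chemokine receptor gene Ccr2 (1.56 ± 0.25) and Csf1r, the receptor for the macrophage growth factor (0.95 ± 0.14), rose more in knockout than in wild-type lung (difference of steps 1.73, adjusted p = 0.00087, and 0.78, adjusted p = 0.006). Without wild-type PND14 replicate 2 the difference for Csf1r was not called (0.58, adjusted p = 0.052). Il33, the epithelial alarmin of type 2 immunity, rose from 9.23, 9 and 8.56 to 10.82, 10.77 and 10.79 (1.86 ± 0.21), also by more than in wild type (1.43, adjusted p = 0.00094). The mast cell protease gene Cma1 fell (-2.25 ± 0.37), and so did Mmp8, a neutrophil collagenase (-1.91 ± 0.29). The interferon response list had 2 of 13 higher and 1 lower, below the background share, though Gbp2 rose (1.67 ± 0.18). Of 6 complement genes 4 rose, with C1s1 at 1.65 ± 0.28. With the Gapdh ratio 1 macrophage gene, no monocyte gene and no complement gene kept a call.

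In the epithelium, 7 genes of type 1 cells rose, and no gene of type 2 cells did. Of 16 type 1 genes 7 rose and 1 fell. Pdpn, the surface protein podoplanin, was at 11.35, 10.93 and 10.59 in newborns and at 12.61, 12.64 and 12.61 at PND14. The later libraries were nearly identical and lay above all newborn values (1.66 ± 0.22), and the rise exceeded that in wild type (difference 1.74, adjusted p = 0.00023). Rtkn2 (1.99 ± 0.27) and the guidance gene Sema3e (1.47 ± 0.19) rose too. The brightest type 1 genes, Ager, Hopx and Cav1, were at 13.67 to 14.37 at birth and were not called. Gprc5a, a retinoid-induced receptor, fell (-1.15 ± 0.32). None of 16 genes of surfactant and type 2 cells rose and 4 fell, Dlk1, the protease gene Ctsh (-0.9 ± 0.23), Cebpa (-0.72 ± 0.21) and Sftpb (-0.75 ± 0.26). The call of Sftpb was lost without PND0 replicate 1 (-0.69, adjusted p = 0.079) or 2 (-0.75, adjusted p = 0.056) and without PND14 replicate 2 (-0.73, adjusted p = 0.063) or 3 (-0.71, adjusted p = 0.073). Sftpc (0.05), the lipid transporter gene Abca3 (0.23) and Scd1 (0.79) were not called. The absence of type 2 rises depended on the fit. With the 6 arrays alone 3 type 2 genes were called higher and 5 lower. Among the 3 were Sftpa1 (0.56, adjusted p = 0.0022) and Scd1 (adjusted p = 0.0019). In that fit 9 type 1 genes were higher and 1 lower. With array medians subtracted 1 type 2 gene was higher and 2 were lower. In the fit with the Gapdh covariate none of the type 1 rises was called. Among type 2 genes Dlk1 and Ctsh then kept their call, Cebpa and Sftpb did not, and Abca3 was called lower (-1.28).

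Of 12 club cell genes 3 rose and 1 fell, shares near the background of 22.2% and 12.4%. The cytochrome gene Cyp2f2 went from 12.82, 12.19 and 12.3 to 14.02, 14.34 and 14.39 (1.81 ± 0.42) and the retinaldehyde dehydrogenase gene Aldh1a1 from 11.8, 11.5 and 11.88 to 13.37, 13.39 and 13.53 (1.7 ± 0.25). Bpifa1, a secreted defence protein of the upper airways, was at 8.29, 5.84 and 5.09 at birth and 11.63, 10.67 and 10.1 at PND14 (4.39 ± 0.99). Its newborn values were widely spread. Retnla fell (-2.1 ± 0.45). Of 13 ciliated cell genes 4 rose and none fell, among them Tppp3 (1.34 ± 0.23), and Foxj1, the ciliary master gene, was not called. Pigr, which carries immunoglobulin A across the epithelium, rose from 5.66, 5.69 and 4.7 to 7.62, 8.07 and 7.56 (2.4 ± 0.35). Of these airway changes that of Bpifa1 was called with the Gapdh ratio too, and those of Cyp2f2, Aldh1a1, Retnla, Tppp3 and Pigr were not. The value of Bpifa1 in that fit was 8.62 in place of 4.39, so its size was not stable.

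Lung epithelial transcription factors moved both ways. Of 13 measured 3 fell, Klf5 (11.73, 11.71 and 11.76 to 10.37, 10.17 and 10.29, -1.46 ± 0.19), Elf5 (-1.32 ± 0.25) and Gata6 (-1.15 ± 0.17), and each was called with the Gapdh ratio too. Sox2, a factor of the airway lineage, and Mycn, a factor of the growing bud, rose, and neither was called with that ratio. Sox2 (0.98) was not called without PND0 replicate 2 (0.66, adjusted p = 0.14) or PND14 replicate 2 (0.8, adjusted p = 0.071), or with the 6 arrays alone (adjusted p = 0.054), nor Mycn (0.65) without PND0 replicate 3 (0.47, adjusted p = 0.1) or PND14 replicate 1 (0.54, adjusted p = 0.056). Of 11 genes of fluid clearance, which empties the lung of liquid at birth, 4 fell and 1 rose. Nedd4l, a ligase that removes the sodium channel from the membrane, went from 11.29, 11.59 and 11.77 to 9.74, 9.74 and 9.7 (-1.83 ± 0.16), and Atp1b1, a subunit of the sodium pump, fell by 1.4 ± 0.2. The fall of Nedd4l was larger than in wild type (difference -1, adjusted p = 0.0023). Among the 25 largest falls of all genes were also Atp6v0a4, a proton pump subunit (10.03, 10.33 and 10.82 to 6.86, 6.62 and 6.31), the chloride channel regulator gene Clca3a1 (-3.48 ± 0.26), Tmem213 (-3.35 ± 0.33) and Psca (-4.66 ± 0.8). Psca varied at birth (10.98, 7.68 and 9.04) and was near the lowest signals at PND14 (4.5, 4.74 and 4.46).

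Elastic fibre genes went both ways, with 4 of 14 higher and 2 lower at PND14, near the background shares of 22.2% and 12.4%. Efemp1, which encodes fibulin-3, was at 8.83, 8.59 and 8.08 in newborns and 11.95, 11.97 and 12.15 at PND14. The later values lay about 3 log2 units above the newborn ones (3.52 ± 0.25, adjusted p = 5.3e-16). Loxl1, a crosslinking enzyme of mature elastic fibres, rose (1.24 ± 0.19), while its relative Lox went from 13.32, 13.36 and 13.41 to 11.38, 11.15 and 11.13 (-2.14 ± 0.19). Fbn2, the fetal fibrillin, fell by 1.81 ± 0.23. Elastin itself, Eln, was at 13.77 and 13.56 and was not called, nor was Fbln5 (0.27). In the fit with the Gapdh ratio the falls of Lox and Fbn2 and the rise of Efemp1 were called, the rise of Loxl1 was not, and Eln was called lower (-1.54).

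Of 19 collagen genes 7 rose and 4 fell. Basement membrane chains went both ways: Col4a4 (0.98 ± 0.3) and Col4a5 (1.37 ± 0.2) rose and Col4a1 (-0.44 ± 0.11) fell. Interstitial Col1a1 rose from 11.84, 11.39 and 11.5 to 12.22, 12.92 and 12.64 (1.01 ± 0.25). No collagen rise was called with the Gapdh ratio, and the direction of Col1a1 then was -0.25. Of 13 matrix proteases and inhibitors 6 rose and 4 fell. Timp3, an inhibitor bound to matrix, went from 13.82, 13.89 and 13.98 to 12.45, 12.24 and 11.95 (-1.69 ± 0.19), and Timp1 fell by 1.1 ± 0.18, whereas Timp2 rose (1.16 ± 0.17). The thrombospondin gene Thbs1 fell from 11.5, 11.15 and 11.45 to 9.56, 9.08 and 8.97 (-2.16 ± 0.24). Prelp, a small leucine-rich matrix protein, was among the largest rises of all genes (7.7, 7.17 and 7.03 to 11.23, 10.95 and 11.33, 3.87 ± 0.21, adjusted p = 5.4e-20).

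Stromal and vessel genes changed in both directions. Of 13 lipofibroblast genes 5 rose and none fell, including the lipid droplet gene Plin2 (0.95 ± 0.15) and Wnt2 (1.21 ± 0.24). Of 14 genes of myofibroblasts and smooth muscle 3 rose and 1 fell, not above the background shares. Acta2, smooth muscle actin, was at 13.62 and 13.57 and was not called. In wild type Acta2 fell by 0.91 and the difference of steps was 0.86 (adjusted p = 0.025). That call was lost without wild-type PND14 replicate 2 (0.4, adjusted p = 0.23) and without knockout PND0 replicate 2 (0.73, adjusted p = 0.089) or PND14 replicate 3 (0.84, adjusted p = 0.054). The pericyte gene Rgs5 rose from 10.11, 9.43 and 9.73 to 11.71, 11.82 and 11.48 (1.91 ± 0.24), while the pericyte channel genes Kcnj8 (-0.96 ± 0.15) and Abcc9 (-0.76 ± 0.21) fell. Among capillary genes 4 of 14 rose and 2 fell, near the background shares. Sema3c (1.99 ± 0.17), Car4, a mark of alveolar capillaries (1.76 ± 0.34), and the apelin receptor gene Aplnr (1.33 ± 0.19) rose. Kdr, the main receptor for Vegfa, rose by 1.08 ± 0.19. Lyve1, the hyaluronan receptor of lymphatic vessels and some macrophages, fell from 13.38, 13.59 and 13.89 to 12.4, 11.64 and 11.8 (-1.67 ± 0.23). Given the Gapdh covariate, Sema3c, Rgs5 and Lyve1 were called and Kdr, Car4, Aplnr, Plin2, Wnt2, Kcnj8 and Abcc9 were not.

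None of 13 genes of the angiotensin and nitric oxide systems rose and 7 fell, with a median of -0.71. Arg2, an arginase that competes with nitric oxide synthases for arginine, went from 11.02, 11.17 and 11.33 to 8.86, 8.39 and 8.55 (-2.57 ± 0.24). Nos3, the endothelial synthase, fell by 0.97 ± 0.18, and so did the angiotensin receptor gene Agtr1a (-0.97 ± 0.19). Edn1, which encodes the vasoconstrictor endothelin 1, fell by 0.71 ± 0.21. Ace was not called (10.79 and 11.18). After adding the Gapdh ratio to the fit Arg2, Nos3 and Edn1 were called.

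Lrat and Crabp1, of retinoid handling, were among the 25 largest rises. Lrat, which esterifies retinol for storage, was at 5.61, 5.32 and 5.53 in newborns and 9.95, 9.79 and 10.35 at PND14 (4.54 ± 0.32). Crabp1, a retinoic acid binding protein, rose from 5.95, 5.43 and 6.17 to 10.5, 9.89 and 10.24 (4.36 ± 0.39). Both moved from near the lowest signals to mid-range, and both were called with the Gapdh ratio. In all 4 of 15 retinoid genes rose and 2 fell, near the background shares, and the retinoic acid receptor genes Rara (-0.28) and Rarb (0.52) were not called. Of 20 Wnt genes 8 rose and 1 fell, with the inhibitor gene Wif1 at 1.97 ± 0.28 and the enhancer gene Rspo2 at 1.39 ± 0.32. Of 12 Hox genes 6 rose and none fell, among them Hoxa4 (1.09 ± 0.24) and Hoxb6 (1 ± 0.26). Of 13 Tgf-beta genes 6 fell and 2 rose, with the receptors Tgfbr1 (-0.71 ± 0.08), Tgfbr2 (-0.63 ± 0.11) and Tgfbr3 (-0.89 ± 0.13) lower and the ligand Tgfb3 higher (1.24 ± 0.22). Of 20 Fgf, Shh and Bmp genes 4 rose and 1 fell, not above the background shares. The fall was that of Id1, a target of Bmp signals (-1.51 ± 0.17). No Wnt or Hox rise was called with the Gapdh ratio, nor were the changes of Tgfb3 and Tgfbr1, while Tgfbr2, Tgfbr3 and Id1 kept theirs.

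Genes usually regarded as Nrf2 targets still changed with age in lungs without Nrf2. Of 32 measured targets 14 rose (background 22.2%) and 6 fell. Gsta2, an alpha-class glutathione transferase, read 7.36, 6.59 and 7.49 in newborns and 8.94, 9.56 and 9.65 at PND14 (2.23 ± 0.28). Gsta3 went from 6.15, 6 and 5.97 to 8.44, 7.76 and 8.2 (2.09 ± 0.37) and the aldehyde dehydrogenase gene Aldh3a1 from 6.74, 6.7 and 6.98 to 8.8, 9.03 and 9.03 (2.15 ± 0.31). None of these 3 overlapped between the ages. Aox1 (1.39 ± 0.26), Gstp1 (0.99 ± 0.13), the exporters Abcc1 (0.99 ± 0.13) and Abcc4 (1 ± 0.2) and the pentose phosphate gene Taldo1 (0.96 ± 0.11) rose as well. Both subunits of glutamate-cysteine ligase, which begins glutathione synthesis, fell, Gclc from 9.56, 9.51 and 9.92 to 8.86, 9.29 and 8.9 (-0.65 ± 0.13) and Gclm by 0.83 ± 0.14, and so did the autophagy receptor gene Sqstm1 (-1.02 ± 0.1). Txnrd1 (-0.27), Srxn1 (-0.3) and Slc7a11 (5.61 and 5.59) were not called. The step differed from wild type in 6 of the 32. It was higher in knockout for Gsta2 (2.11), Gsta3 (1.77), Gsta4 (1.21), Me1 (1.14) and Aox1 (1.16), and lower for Gclc (-0.67, adjusted p = 0.014). The differences of Gsta2 and Me1 were called whichever of the 12 libraries was left out. Fitted to the 12 arrays alone, none of the 6 was called (Gsta2 adjusted p = 0.11, Me1 0.16). Those of Gsta3, Gsta4 and Aox1 were each lost without any 1 of 6 or 7 libraries, among them wild-type PND14 replicate 2 (1.33, 0.98 and 0.93, adjusted p = 0.15, 0.12 and 0.15). That of Gclc was lost without knockout PND0 replicate 3 (-0.55, adjusted p = 0.078). In the Gapdh covariate fit Taldo1 and Sqstm1 were called and the other 18 were not.

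Of 11 genes of Nrf2, Keap1 and their partners 5 fell and 2 rose. Maff, a small Maf, went from 10.46, 10.23 and 10.64 to 8.29, 8.1 and 8.26 (-2.23 ± 0.22) and the repressor gene Bach2 from 10.68, 11.31 and 11.07 to 9.55, 9.96 and 9.78 (-1.25 ± 0.13). Both fell further than in wild type (differences -1.55 and -0.74). Cul3, the scaffold of the ligase that Keap1 serves, fell by 0.79 ± 0.1. Keap1 (0.57 ± 0.12) and the related factor gene Nfe2l1 (1.12 ± 0.14) rose. Of 22 other antioxidant enzymes 10 rose and 3 fell. Gstt1 was at 6.86, 7.34 and 7.28 in newborns and 10.22, 10.75 and 11 at PND14 (3.5 ± 0.39). Sod3, the extracellular superoxide dismutase, rose by 2.01 ± 0.39, Sod2 of mitochondria by 0.81 ± 0.16 and catalase, Cat, by 0.75 ± 0.13, whereas Prdx2 (-0.46 ± 0.1) and Prdx4 (-0.55 ± 0.12) fell. With the Gapdh ratio Maff and Bach2 kept their calls, and Cul3, Keap1, Nfe2l1, Gstt1, Sod3, Sod2, Cat, Prdx2 and Prdx4 did not. Of the 22 enzymes 1 was then higher and none lower. With array medians subtracted 13 were higher and none lower.

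Of 13 cytochrome P450 and flavin monooxygenase genes 7 rose and 1 fell. Fmo1 went from 10.09, 10.81 and 9.83 to 12.68, 12.52 and 12.67 (2.38 ± 0.27) and Cyp2b10 from 7.7, 7.37 and 7.59 to 10.13, 10.92 and 10.82 (3.07 ± 0.49). Cyp1a1, the classic target of the aryl hydrocarbon receptor, was at 5.77, 6.01 and 6.29 in newborns and 8.32, 8.83 and 10.37 at PND14 (3.15 ± 0.41). None of these rises was called with the Gapdh ratio (Cyp1a1 adjusted p = 0.13). Hpgd, which inactivates prostaglandins, rose from 10.02, 9.8 and 9.51 to 13.36, 13.24 and 13.24 (3.5 ± 0.26) and was called in that fit.

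Of 13 glucocorticoid response genes 8 fell and 3 rose, with a median of -1.07. Fkbp5, a chaperone that glucocorticoids induce strongly, was at 11.86, 12 and 12.22 in newborns and 9.32, 9.04 and 8.82 at PND14. Newborn values lay more than 2 log2 units above the later ones (-2.97 ± 0.3, adjusted p = 3.5e-11). Zbtb16 went from 11.9, 12.33 and 12.23 to 9.77, 8.76 and 8.09 (-3.28 ± 0.51), and the metallothionein genes Mt1 (-1.7 ± 0.25) and Mt2 (-1.98 ± 0.26) and the metabolic switch gene Pdk4 (-1.78 ± 0.4) fell. The receptor gene Nr3c1 rose (0.67 ± 0.11). The step was lower than in wild type for 6 members, with Fkbp5 at -2.18 (adjusted p = 0.00064) and Per1 at -1.73 (adjusted p = 0.0029). Wild-type Fkbp5 was at 10.27, 10.97 and 10.16 and then 8.68, 11.07 and 9.25, so 1 wild-type library at PND14, replicate 2, stood above the other two. Without it the difference of Fkbp5 was -1.48 (adjusted p = 0.0059). Given the Gapdh ratio, Per1, Mt1 and Mt2 were called lower and Fkbp5 (-0.89) and Zbtb16 (-2.78) were not.

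Clock genes moved both ways, 4 of 14 up and 4 down (background 22.2% and 12.4%). Dbp rose from 7.21, 7.4 and 7.48 to 9.51, 9.74 and 9.67 (2.28 ± 0.24), and Arntl fell from 9.27, 9.5 and 9.57 to 8.5, 8.21 and 8.18 (-1.15 ± 0.19). The hour at which lungs were taken was not given in the sources used here. Of 14 immediate early genes 4 rose and 1 fell, near the background shares. Egr1 went from 9.78, 9.55 and 9.81 to 12.11, 12.12 and 12.47 (2.52 ± 0.28). Dbp and Egr1 were called with the Gapdh ratio and Arntl was not.

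In metabolism, 6 of 9 glycogen genes rose and none fell, with Ppp1r3c, which targets a phosphatase to glycogen, at 1.4 ± 0.21. None of the 9 was called with the Gapdh ratio. Of 15 respiratory chain genes 5 rose and none fell, with Cox5a at 0.8 ± 0.12. Of 15 genes of glycolysis and the hypoxia response 5 fell and 1 rose, including Bnip3 (-1.3 ± 0.15), Hif3a (-1.79 ± 0.2) and the glucose transporter gene Slc2a1 (-0.77 ± 0.13). Cholesterol genes divided, 5 up and 4 down of 14. Of 11 cytosolic ribosomal protein genes 4 fell and none rose, but with array medians subtracted 2 were higher and 1 lower, so that list has no direction apart from scaling.

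Few proliferation genes passed the test. Of 20 cell cycle genes 17 were not called, 2 of the replication helicase, Mcm2 (1.01 ± 0.31) and Mcm3 (0.87 ± 0.29), were higher, and the mitotic kinase gene Cdk1 was lower (-0.88 ± 0.3). Mki67, a general mark of cycling cells, was at 9.25 and 8.81. The call of Mcm2 was lost without PND0 replicate 3 (0.87, adjusted p = 0.06) and that of Cdk1 without PND0 replicate 1 (-0.77, adjusted p = 0.089) or PND14 replicate 2 (-0.78, adjusted p = 0.083). Mcm3 was not called without PND0 replicate 1 (0.83, adjusted p = 0.052) or 2 (0.83, adjusted p = 0.055), or PND14 replicate 2 (0.77, adjusted p = 0.074) or 3 (0.82, adjusted p = 0.058). Including the Gapdh ratio, the list's median moved from -0.15 to 1.68, Mcm2 and Mcm3 were called higher and Cdk1 turned to 0.74. The nuclear long non-coding RNA Malat1 fell from 14.2, 14.39 and 14.27 to 11.93, 12.71 and 10.71 (-2.5 ± 0.24), by more than in wild type (difference -1.64, adjusted p = 0.0013). Hmgb2, a chromatin protein of dividing cells, fell by 1.38 ± 0.33 (0.39 with the Gapdh ratio), and Tet1, which oxidizes methylated DNA, rose by 1.54 ± 0.19, which was not called with that ratio.

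Several of the largest rises were genes that adult lung tissue is not known for, and they differed between libraries of the same age. The epidermal gene Lce3f was at 4.67, 4.36 and 4.6 in newborns and 7.49, 12.19 and 12.53 at PND14. Krtdap, another gene of cornifying skin, was at 6.65 in PND14 replicate 1, barely above the highest newborn value of 6.62, and at 11.57 and 12.08 in replicates 2 and 3. The mean of 4 such genes (Lce3f, Lce3a, Krtdap and Mt4) was 4.69 to 5.71 at birth and 6.8, 11.23 and 11.6 at PND14. Fat genes ran the other way: their list averaged 8.33, 7.19 and 6.92 at birth and 10.87, 8.88 and 8.38 at PND14, with the adipokine gene Adipoq at 12.02, 9.82 and 9.05. Skeletal muscle genes averaged 11.07, 8.17 and 7.35 at birth and 9.03, 10.4 and 11.44 at PND14, and 2 of 8 were called. Myh1, a fast myosin, was at 8.51, 5.91 and 4.53 and then 10.05, 12.73 and 13.68. Oesophageal genes averaged 9.71, 7.15 and 8.29 and then 7.05, 9.97 and 10.39. Heart muscle genes, which muscle in the wall of mouse pulmonary veins also expresses, averaged 10.12 to 11.42 at birth and 11.95 to 12.66 at PND14, with 1 of 9 called. Liver genes averaged 5.49 to 6.11 and 5.64 to 5.83. The part of tissue taken with the lung in these results was not tested.

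**Figure D3:**
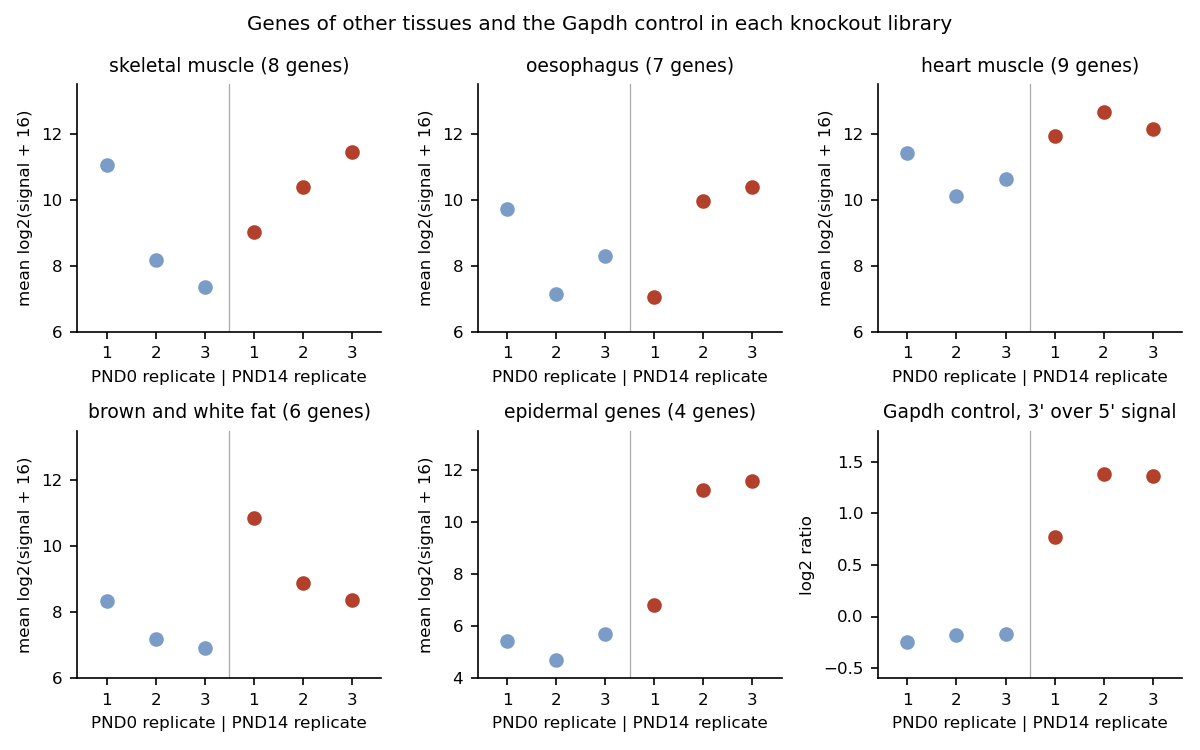
Mean log2(signal + 16) of genes of 5 other tissues, and the log2 ratio of 3' to 5' Gapdh control signal, in each knockout library at PND0 (blue) and PND14 (red). Epidermal genes were high in PND14 replicates 2 and 3, fat genes in replicate 1, and the Gapdh ratio in all 3.

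The change from birth to PND14 was compared with that of wild-type lung. In wild type 3069 of 18193 genes were called (16.9%). Of these 1949 were also called in the same direction in knockout, 63.5% of the wild-type calls and 31% of the knockout calls, and 81 were called in opposite directions. The difference between the steps was called for 1823 genes (10%), 1254 higher in knockout (6.89%) and 569 lower (3.13%). That count was sensitive: with the 12 arrays of these groups alone 82 probe sets were called in place of 3429. It holds differences at birth as well as at PND14. None of the step differences called above for a named gene was called in the fit to 12 arrays. The genes were Ccr2, Csf1r, Il33, Pdpn, Nedd4l, Acta2, Maff, Bach2, Fkbp5, Per1, Malat1 and the Nrf2 targets.

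**Figure D4:**
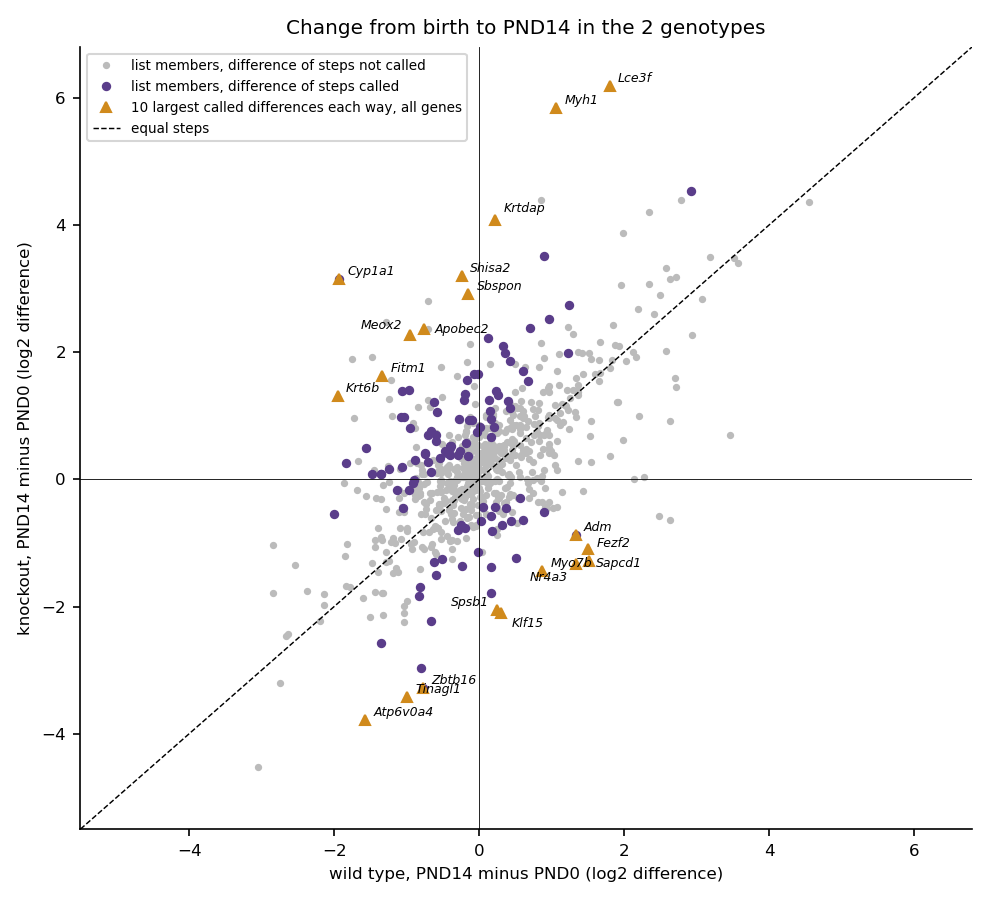
Change from PND0 to PND14 (log2 difference) in wild type (horizontal) and knockout (vertical). Points are members of the gene lists, purple where the difference of steps was called. Triangles are the 10 largest called differences in each direction over all genes. Cyp1a1 rose in knockout and fell in wild type.

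Cyp1a1 had the largest called difference. Wild-type libraries read 8.28, 7.86 and 7.81 at PND0 and 6.23, 5.81 and 6.13 at PND14, and fell by 1.93 where the knockout rose by 3.15 (difference 5.08 ± 0.57, adjusted p = 4.6e-08). Knockout and wild type thus changed places, and the difference was called with the Gapdh ratio (4.68) and with 12 arrays alone (adjusted p = 0.0038). Shisa2, which restrains Fgf and Wnt receptors, was at 7.26, 6.65 and 6.13 and then 10.06, 9.68 and 9.9 in knockout. In wild type it was at 9.49, 9.09 and 9.34 and then 9.1, 8.84 and 9.26, so that the genotypes were apart at birth and close at PND14 (difference 3.44 ± 0.25). Meox2, a homeobox gene of mesenchyme and vessels, was also lower in knockout newborns (8.23, 8.64 and 8.33) than in wild-type newborns (10.73, 10.36 and 10.79). Unlike Shisa2 it fell in wild type (-0.95). The PND14 means were 10.67 in knockout and 9.68 in wild type (difference of steps 3.22 ± 0.28). Sbspon also differed (3.06 ± 0.54). Of the other genes above wild type, Myh1, Lce3f, Krtdap, Krt6b, Apobec2 and Fitm1 include genes of muscle and skin. Apart from Krt6b, each of these 6 lost its call on removal of 1 library. Lce3f lost it only without knockout PND14 replicate 3 (3.49, adjusted p = 0.056). Krtdap, Myh1, Apobec2 and Fitm1 lost it without any 1 of several libraries, in both genotypes. Their values were lowest without wild-type PND14 replicate 1 for Krtdap (2.77) and Myh1 (3.27). For Apobec2 (2.57) and Fitm1 (2.42) they were lowest without wild-type PND14 replicate 2.

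On the other side, Spsb1, an adaptor of a ubiquitin ligase, was at 11.07, 11.31 and 11.48 in newborn knockouts and 9.3, 9.26 and 9.12 at PND14. Wild type stayed at 8.79 to 9.16 at both ages (difference -2.31 ± 0.22, adjusted p = 3.4e-10). Adm, which encodes the vasodilator adrenomedullin, was lower at PND14 in knockout (9.71, 9.04 and 9.75 to 8.58, 8.57 and 8.72) and higher in wild type (7.98, 7.6 and 6.93 to 9.01, 8.42 and 9.07). Its knockout call alone was lost without PND0 replicate 1 (-0.77, adjusted p = 0.083) or 3 (-0.75, adjusted p = 0.097) or PND14 replicate 1 (-0.86, adjusted p = 0.053) or 2 (-0.85, adjusted p = 0.055). The basement membrane gene Tinagl1 (-2.43 ± 0.37), the glucocorticoid-induced Klf15 (-2.4 ± 0.6), Atp6v0a4 (-2.23 ± 0.51), Zbtb16 (-2.51 ± 0.73), the nuclear receptor gene Nr4a3 (-2.66 ± 0.62), and the dimmer Fezf2, Sapcd1 and Myo7b complete the 10. Without wild-type PND14 replicate 2 Fezf2 (-1.97, adjusted p = 0.096) and Sapcd1 (-2.07, adjusted p = 0.057) were not called. Zbtb16 was not called without knockout PND0 replicate 3 (-2.47, adjusted p = 0.051) or PND14 replicate 3 (-2.12, adjusted p = 0.095). Nor was it called without wild-type PND0 replicate 1 (-2.21, adjusted p = 0.076) or 3 (-2.4, adjusted p = 0.056). In newborns the knockout mean of Tinagl1 was 12.31 against 10.02 in wild type, and at PND14 the means were 8.88 and 9.02.

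Neighbouring ages place the 2 groups. Of the 25 largest falls, 14 had a newborn level at least 1 log2 unit above that of knockout lung at E18.5. In wild type 20 fell too, 12 differed in step between genotypes and 17 were called with the Gapdh ratio. Over all genes 7.86% fell in wild type and 10% differed in step. The 25 were picked for extreme knockout values at these 2 ages. The E18.5, step and Gapdh counts use those values again, so high counts are built in. F3, the tissue factor that starts clotting, was at 8.44, 9.19 and 8.85 at E18.5, 12.36, 12.49 and 12.41 at birth and 10.12, 9.64 and 9.6 at PND14. Arg2, Spsb1 and Fkbp5 had the same peak at birth, with E18.5 means of 7.54, 8.88 and 10.47 before newborn means of 11.17, 11.29 and 12.03. Dlk1, Meg3, Rian and Igf2 did not: Dlk1 was at 13.79 at E18.5 and 13.75 at birth. Wild-type F3 was at 10.22, 10.27 and 10.25 at birth, below knockout. The difference of its steps was called (-1.44 ± 0.27), but not with 12 arrays alone (adjusted p = 0.097). Shisa2 and Meox2 showed the reverse, with E18.5 means of 8.54 and 10.32, newborn means of 6.68 and 8.4, and PND14 means of 9.88 and 10.67.

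Of the 25 largest rises, 14 rose in wild type, 9 differed in step and 14 were called with the Gapdh ratio. Over all genes 9.01% rose in wild type and 10% differed in step. By PND42, 15 of the 25 showed no called change from PND14, 2 rose further and 8 fell back. Over all 18193 genes 1262 rose and 1498 fell from PND14 to PND42. The 25 were picked for high PND14 values in knockout, so a part of the returns and step differences is built in. Prelp rose further, to 12.83, and Crabp1 returned to 6.34. H2-Aa went from 11.28 at PND14 to 13.09 at PND42, and Ms4a1 was at 8.7 and 8.67. Among the falls, Igf2 (9.24), Meg3 (9.73), Rian (8.48), Tmem213 (7.09) and Col25a1 (5.17) fell again to PND42, and Tinagl1 rose back to 10.34.

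**Figure D5:**
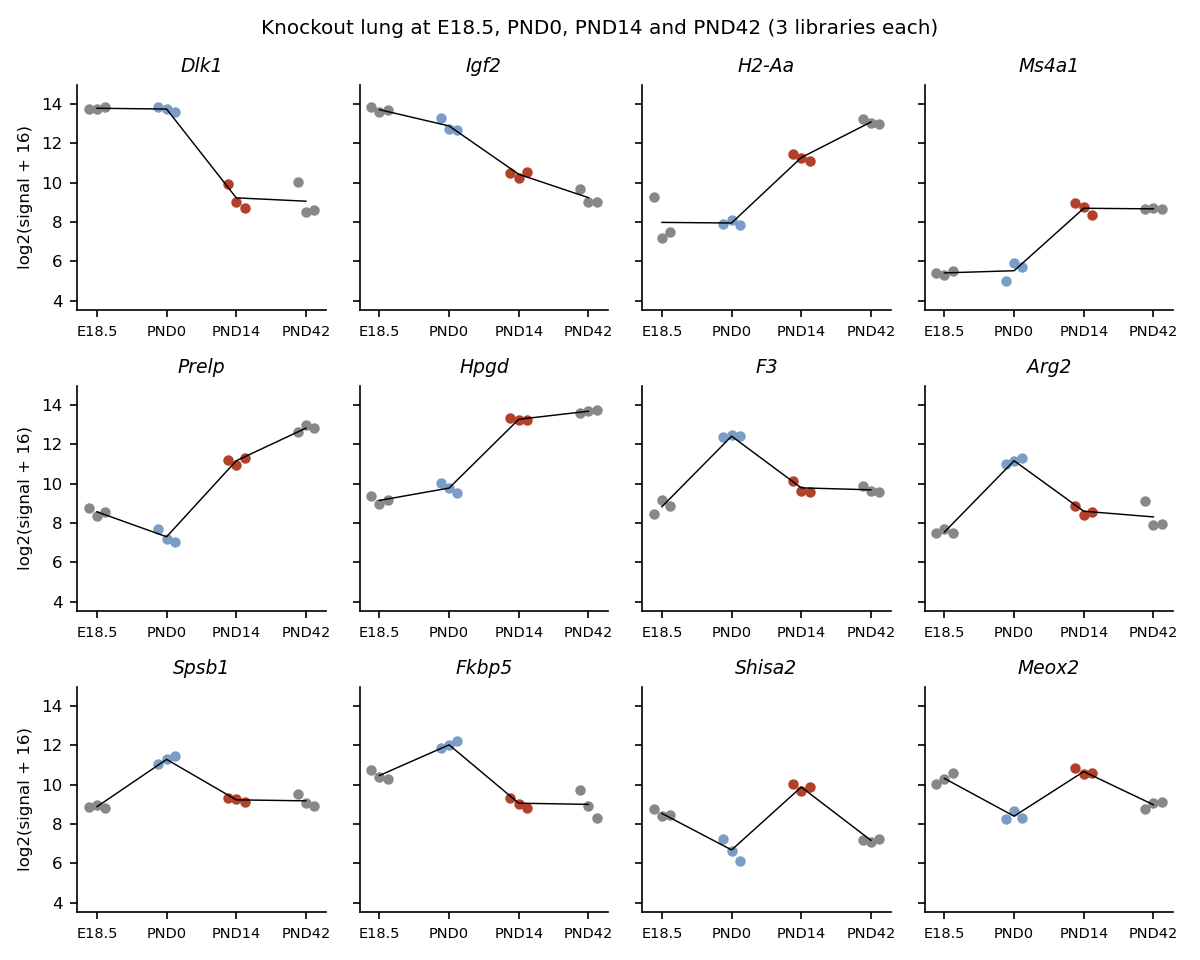
Values of 12 genes in knockout lung at E18.5, PND0, PND14 and PND42 (3 libraries each; line through the means). Dlk1 and Igf2 were high before birth, whereas F3, Arg2, Spsb1 and Fkbp5 were highest at PND0 and Shisa2 and Meox2 were lower at PND0 than at E18.5 and PND14.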

How the data were processed

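The deposited values were linear signal intensities, 1 per probe set and array, which the authors made with the Affymetrix software GCOS (named in the submitters' processing notes, version not given). The 45037 non-control probe sets of 66 arrays were quantile normalized, and log2(signal + 16) was fitted with limma 3.58.1 in R 4.3.3, with a mean for each of 22 groups, an intensity trend and Benjamini-Hochberg adjustment, two-sided, called at an adjusted p under 0.05. Exact permutation of 3 against 3 cannot go below 0.1. Labels call the samples separate lungs. The p-values and standard errors rest on the spread between lungs of the same group, pooled over all 22 groups. They do not measure the spread within the compared groups alone, which for single genes can be wider or narrower. Fitted to the arrays of the knockout comparison alone, 10868 probe sets were called in place of 13848. Of the probe sets, 34945 had 1 symbol, 932 several and 9160 none, and the brightest by mean over all arrays stood for each of 18193 genes.

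Named genes were the Nfe2l2 probe sets, the 25 largest called rises and falls without overlap between ages, the 10 largest called step differences each way and members of 63 lists (746 of 813 genes measured), of which a part is printed. The comparison, the lists and their members were chosen with earlier results of these data known, so lists are described and not tested. Same-numbered knockout arrays did not deviate together (r = -0.026, 0.009 and -0.002) and wild-type ones did not all do so (r = 0.2, 0.36 and 0.072), so numbers were not taken as pairs. On data simulated for this comparison (45037 probe sets), 21%, 49% and 93% of changes of 0.5, 1 and 2 log2 units were recovered with 5.5% false calls. Only 200 probe sets were changed at each size, far fewer than the 13848 called in the data. The simulated noise was normal and independent between probe sets and arrays. The rates therefore need not hold for the data. Alternatives changed the scaling, pseudocount, filter, fit, covariates and libraries. The number of arrays limits the precision. Promoters were taken from RefSeq (GRCm38.p6). Plots were drawn with matplotlib 3.10.9.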

Additional observations from a re-analysis of the deposited data

Results flagged for a closer look

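The step from PND0 to PND14 differed between genotypes, by limma's test of the difference itself, for 1823 genes. The 10 largest differences above wild type were those of Cyp1a1 (5.08), Myh1 (4.78), Lce3f (4.39), Krtdap (3.86), Shisa2 (3.44), Krt6b (3.27), Meox2 (3.22), Apobec2 (3.13), Sbspon (3.06) and Fitm1 (2.97), in log2 units. The 10 largest below it were those of Fezf2 (-2.8), Nr4a3 (-2.66), Sapcd1 (-2.6), Zbtb16 (-2.51), Tinagl1 (-2.43), Klf15 (-2.4), Myo7b (-2.31), Spsb1 (-2.31), Atp6v0a4 (-2.23) and Adm (-2.2). With 12 arrays alone 7 of these 20 kept their call. Groups of 3 are too small for a test of single outlying libraries.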

How the results depend on the processing

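The count of 13848 probe sets became 9012 with the 12 arrays of both genotypes at these ages and 4191 with the Gapdh 3' to 5' ratio as a covariate, and ranged from 11642 to 14724 with 1 library left out. The count with at least 2-fold, 5389, became 2616 with a pseudocount of 64, 3488 with dim probe sets left out and 3167 with the Gapdh ratio. The count of step differences, 3429, became 82 with 12 arrays, 66 with the replicate block on those arrays and 1789 with the Gapdh ratio. With 1 library left out it ranged from 2277 (without knockout PND0 replicate 3) to 5143 (without wild-type PND14 replicate 1). With the replicate block on 66 arrays 13820 and 3422 were called, and on the 6 arrays 10313. The replicate block ended no call of a named knockout change with 66 arrays. With the Gapdh ratio the direction reversed for Abca3 (-1.28), Cdk1 (0.74), Col1a1 (-0.25), Col4a4 (-0.58), Fitm1 (-0.45), Hmgb2 (0.39), Hoxa4 (-0.08), Kdr (-0.29), Krtdap (-0.28), Lce3a (-0.22) and Nr4a3 (0.05). The cause was not tested. The ratio did not overlap between the knockout groups of the 2 ages. Under the other alternatives run no named knockout change reversed.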
